A study of Mus musculus with 6 samples.

Results

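The genes described here are 51 genes of G2 and mitosis: the kinases, cyclins and phosphatases that take a cell into mitosis, the chromosomal passenger complex, the spindle assembly checkpoint, kinetochore and centromere proteins, mitotic kinesins, anaphase regulators, cytokinesis proteins, spindle proteins, and condensin subunits with other chromosome proteins. They were chosen by name, for their known roles, but with earlier results of these data known. Each was looked up by gene symbol in the annotation of the array. Of the 51 genes, 49 had a probe set of their own among the 22180 genes measured, and each of these 49 had exactly 1 such probe set. Ccnb1, the cyclin B1 partner of Cdk1, was not listed in the annotation used here. Ncapg, a condensin subunit, was listed only in a probe set that also names another gene. Neither is among these 49.

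The study measured total RNA from RAW 264.7 cells, a macrophage-like mouse line that grows continuously in culture, on 6 one-colour Affymetrix arrays. In 3 samples the cells had been transfected with a GapmeR against the long non-coding RNA Mist (Mist-targeted), and in the other 3 with a non-targeting GapmeR (Control). A GapmeR is a short antisense oligonucleotide with modified ends that leads RNase H to cut the RNA it pairs with. Both groups received their oligonucleotide at 50 nM for 48 hours, so Control cells went through transfection as well, and each group rests on a single oligonucleotide. Knockdown was not analysed here, because 0 probe sets carried the name Mist. All 10 macrophage markers examined lay above the array median on every array, while the group means of T and NK cell, B cell, fibroblast and neutrophil markers lay between 3.37 and 5.07 on the log2 scale, against array medians of 4.47 to 4.50. Pairs of arrays correlated at 0.988 to 0.991 within a group and at 0.986 to 0.989 between groups, across all probe sets.

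A cell in G2 has copied its DNA and prepares to divide. Cdk1 bound to cyclins A and B, switched on by Cdc25 phosphatases and helped by the Aurora and Polo kinases, starts mitosis; kinetochores then attach chromosomes to spindle microtubules that kinesins shape, and the spindle checkpoint holds the anaphase-promoting complex (APC/C) in check until attachment is complete. Most of these genes are transcribed late in the cell cycle, under the control of the DREAM, MYB-MuvB and FOXM1 complexes. These act at promoter elements called CHR (cell cycle genes homology region) and at the CCAAT boxes bound by NF-Y. Their transcript levels in a culture follow both how many cells divide and how strongly each cell transcribes the genes. In these bulk samples a larger share of cells in G2 and mitosis and more RNA per cell cannot be told apart.

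No member passed the test in either direction: limma called 0 of the 49 genes at an adjusted p under 0.05, against 105 of 41345 probe sets in all (0.254%), which include 47 genes that rose and 45 that fell. With so small a share called in all, a count of 0 among 49 genes does not set the members apart. The differences of the members lay mostly on the same side of 0. Of the 49 genes, 45 had a higher mean in Mist-targeted than in Control cells (91.8%, against 52.2% of all genes), and the median difference was 0.15 on the log2 scale, or 1.11-fold. The same median was 0.0069 over all genes and 0.016 over the 6211 genes at least as bright as the dimmest member, of which 53.9% lay above 0. The middle part of the members, between the quartiles, ran from 0.08 to 0.21, and the whole range was -0.16 for Ccnb2 to 0.44 for Aurka. An unadjusted p under 0.05 was reached by 12 members (24.5%), each with the higher mean in Mist-targeted cells; 5.24% of all genes and 9.98% of the genes at least as bright as the dimmest member reached it in that direction. A fit without moderated variances called 0 of the 41345 probe sets, so its count of 0 members says nothing about them in particular.

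**Figure D1:**
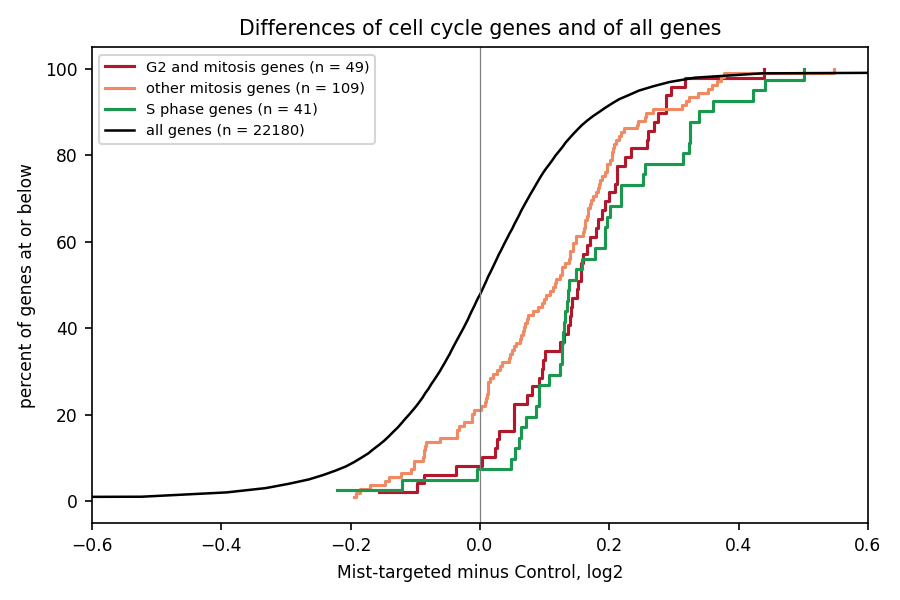
Cumulative percent of genes at or below each log2 difference, Mist-targeted minus Control, for the 49 members, 109 other mitosis genes, 41 S phase genes and all 22180 genes. The curves of the gene lists lie right of that of all genes, and the members cross the middle at 0.15, against 0.0069 for all genes.

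All 3 Mist-targeted arrays lay above all 3 Control arrays for 24 of the 49 members (49.0%), where 9.99% of all genes and 18.8% of the genes at least as bright as the dimmest member did so. The reverse order held for 1 member, Ccnb2, against 9.97% of all genes. For the other 24 members the 2 groups overlapped. With 3 arrays a group, the smallest 2-sided p that an exact permutation test of a single gene can give is 0.1, so complete separation alone cannot pass that test.

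The shift was small next to the differences of the genes called, and most single members could not be told apart from 0. The standard error of a member's difference ran from 0.075 to 0.13, with a median of 0.093. The 95% interval lay wholly above 0 for 12 members and included 0 for 37. Among the genes called, the smallest difference in either direction was 0.59, and 48 of the 49 members had an upper interval bound under that size; Aurka was the exception, with an interval of 0.22 to 0.66. The lower bound lay above -0.59 for all 49.

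Each Mist-targeted array showed the shift. Set against the Control mean of each gene, the median member deviated by 0.16, 0.14 and 0.13 on Mist-targeted arrays 1 to 3, where 43, 44 and 41 of the 49 members lay above that mean. Over all genes, the median deviation on the Mist-targeted arrays was at most 0.0099.

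**Figure D2:**
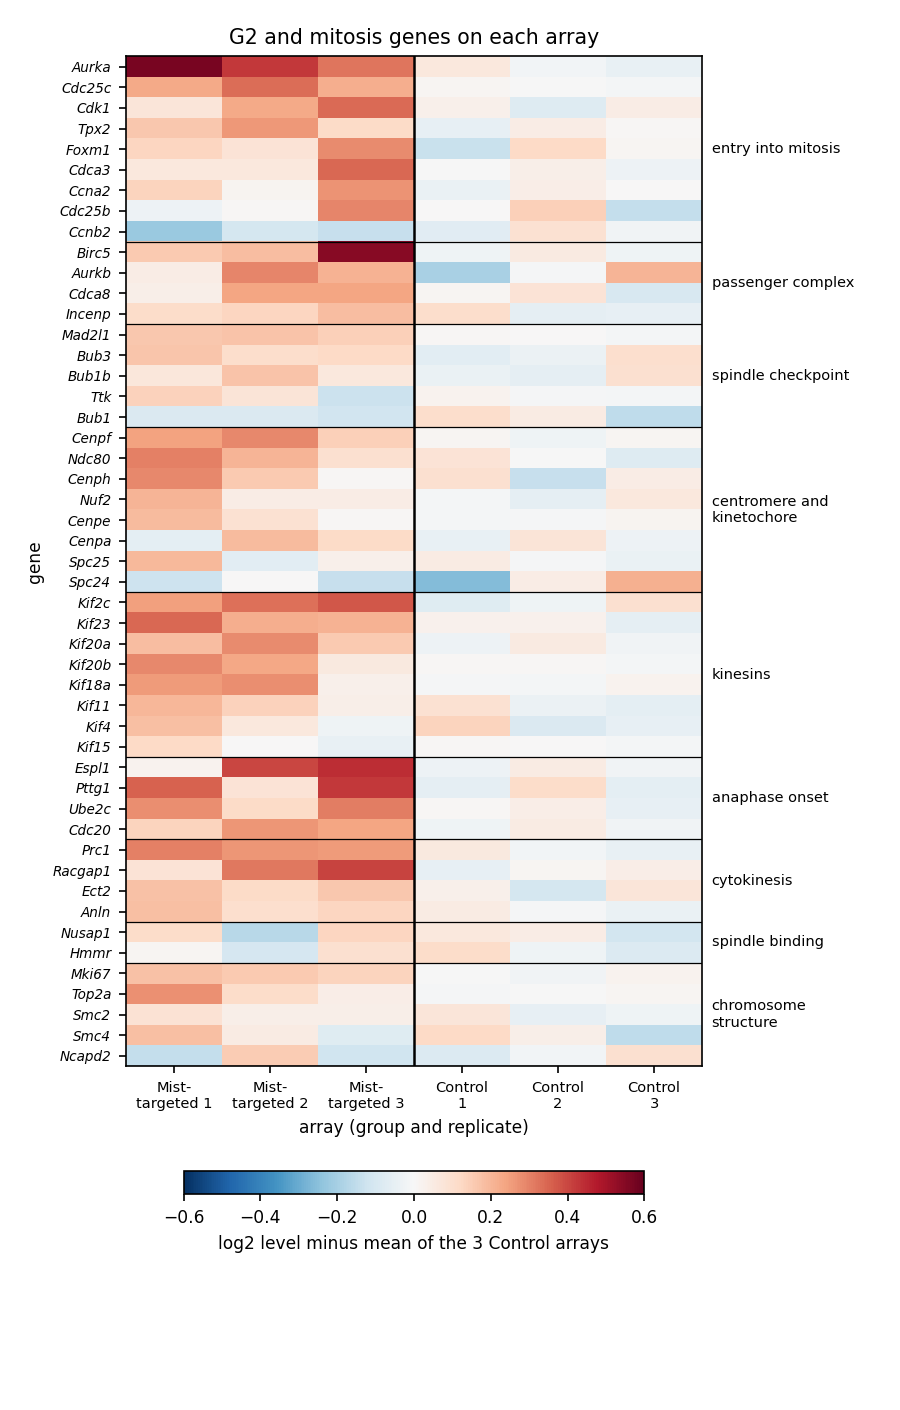
Level of each member on each of the 6 arrays, as the log2 deviation from its Control mean, with members grouped by role and the Mist-targeted arrays left of the Control arrays. On the Mist-targeted arrays the median deviation is 0.16, 0.14 and 0.13.

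The promoters of the members share elements that the choice of genes by role did not use. Sequences came from RefSeq (build GRCm38.p6), in a window of 250 bases before to 50 bases after an annotated start. The table is not complete: 42 of the 51 genes had an entry, with 45 promoters in all, since Bub3, Ect2 and Prc1 had 2 each. Searched on both strands, with overlapping matches allowed, were the CCAAT box (CCAAT), the CHR (TTTGAA or TTCGAA) and an E2F element (TTTCGCGC or TTTGGCGC). A CHR stood in 36 of the 45 member promoters (80.0%), against 19.2% of all 32851 promoters and 17.5% of the 40 promoters of S phase genes. A CCAAT box stood in 34 (75.6%), against 37.4% of all promoters and 60.0% of S phase promoters. The pair occurred together in 68.9% of member promoters, 7.52% of all promoters and 12.5% of S phase promoters. The E2F forms searched are longer, so their shares cannot be set against those of the other elements. They stood in 4 of the 45 member promoters (8.89%), against 27.5% of S phase promoters and 0.813% of all promoters.

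The sequences below are the promoters of the 6 members with the smallest p that had an entry, each from 250 bases before the start up to the start, 5′ to 3′ on the gene's strand, with the letters of CCAAT and CHR matches on either strand in capitals. They show how the elements vary among the members with the clearest differences. The windows are chr2:172370571-172370820 (minus strand) for Aurka, chr4:117178773-117179022 (minus strand) for Kif2c, chr7:80294226-80294475 (plus strand) for Prc1, chr9:61946800-61947049 (minus strand) for Kif23, chr1:189688087-189688336 (minus strand) for Cenpf and chr2:164769679-164769928 (plus strand) for Ube2c.
Aurka: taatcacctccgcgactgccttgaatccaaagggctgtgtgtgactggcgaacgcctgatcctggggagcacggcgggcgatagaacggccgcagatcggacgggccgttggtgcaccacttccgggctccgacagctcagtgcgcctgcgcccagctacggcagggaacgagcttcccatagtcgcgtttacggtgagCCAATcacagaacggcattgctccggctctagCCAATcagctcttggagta
Kif2c: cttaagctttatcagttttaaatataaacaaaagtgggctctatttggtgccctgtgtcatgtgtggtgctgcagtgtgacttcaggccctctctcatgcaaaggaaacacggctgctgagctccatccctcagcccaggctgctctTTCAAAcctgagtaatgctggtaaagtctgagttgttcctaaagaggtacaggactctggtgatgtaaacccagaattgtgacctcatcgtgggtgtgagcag
Prc1: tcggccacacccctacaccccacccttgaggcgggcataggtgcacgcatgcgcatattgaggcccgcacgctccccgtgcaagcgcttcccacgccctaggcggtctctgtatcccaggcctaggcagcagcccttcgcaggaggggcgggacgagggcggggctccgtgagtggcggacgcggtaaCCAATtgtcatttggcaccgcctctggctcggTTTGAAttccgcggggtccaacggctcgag
Kif23: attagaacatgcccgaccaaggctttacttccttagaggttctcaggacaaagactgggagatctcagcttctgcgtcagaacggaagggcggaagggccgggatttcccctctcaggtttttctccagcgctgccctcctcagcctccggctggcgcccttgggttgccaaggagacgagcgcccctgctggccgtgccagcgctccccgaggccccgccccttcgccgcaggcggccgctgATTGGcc
Cenpf: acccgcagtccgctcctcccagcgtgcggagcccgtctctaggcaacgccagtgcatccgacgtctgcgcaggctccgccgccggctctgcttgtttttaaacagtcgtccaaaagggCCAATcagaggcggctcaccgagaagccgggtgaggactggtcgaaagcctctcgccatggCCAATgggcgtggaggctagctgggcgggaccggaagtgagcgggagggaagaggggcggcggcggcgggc
Ube2c: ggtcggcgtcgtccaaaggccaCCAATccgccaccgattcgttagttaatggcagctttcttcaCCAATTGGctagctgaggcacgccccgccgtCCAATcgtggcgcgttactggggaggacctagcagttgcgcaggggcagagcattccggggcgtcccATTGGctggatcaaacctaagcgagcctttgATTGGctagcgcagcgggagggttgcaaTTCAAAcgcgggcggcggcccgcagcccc

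Aurka carried CCAAT boxes whose matches begin 51 and 19 bases before the start, and its CHR lay after the start, outside the printed stretch. The CHR of Kif23 and that of Cenpf also lay after the start, so their printed stretches show none. Ube2c held 6 CCAAT matches on the 2 strands together and a CHR 29 bases before the start. The Prc1 window printed, 1 of its 2 entries, had a CCAAT box 62 and a CHR 30 bases before the start (37 and 5 bases from the start of the other entry), whereas Kif2c had a CHR at 103 bases before the start and no CCAAT box in the window. Across all member promoters, the median CCAAT match lay 71 bases before the start and the median CHR match 15 bases before it. Of the 49 CHR matches, 23 lay after the start. Matches of genes with 2 entries were counted in both windows. The difference between the GapmeR groups was of similar size with and without the elements: the median was 0.15 over the 32 measured members with a CHR and 0.16 over the 8 without, and 0.14 over the 29 with a CCAAT box and 0.19 over the 11 without. A match of letters is a description of the window and not evidence of a bound factor.

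**Figure D3:**
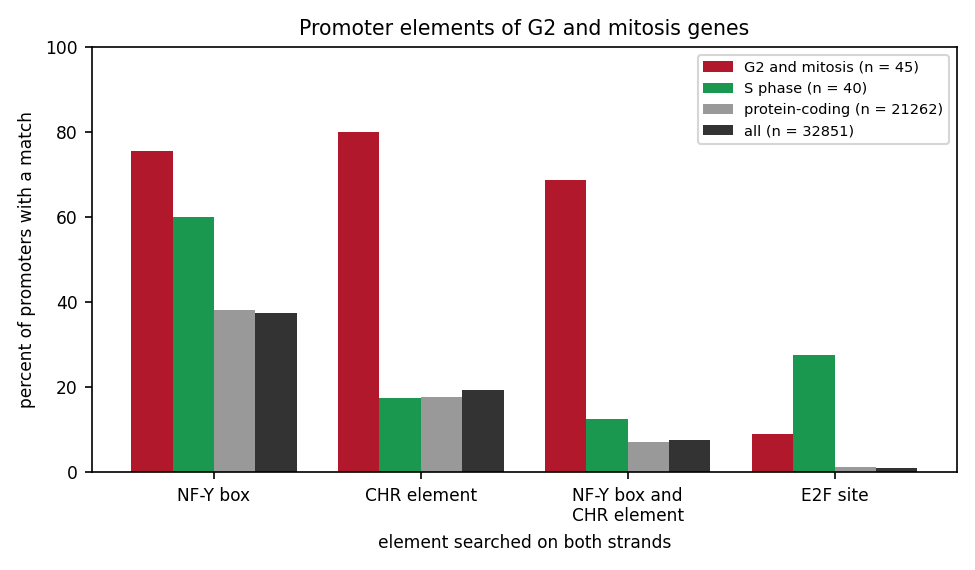
Percent of promoters with at least 1 match to each element (bars), for the 45 member promoters, 40 S phase promoters, 21262 protein-coding promoters and all 32851 promoters; NF-Y box stands for CCAAT. The CHR bar is 80.0% for the members and 17.5% for S phase genes, while the E2F bar is higher for S phase genes, at 27.5% against 8.89% for the members.

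Among the genes of entry into mitosis, 8 of the 9 measured had the higher mean in Mist-targeted cells, none passed the test, and the median difference was 0.17, or 0.11 without Mist-targeted array 3. Aurka, the Aurora A kinase of centrosomes and spindle poles, had the largest difference of all members. Its log2 levels were 9.50, 9.35 and 9.25 in Mist-targeted cells, against 8.99, 8.91 and 8.88 in Control cells. The groups did not overlap, and the difference was 0.44 ± 0.094 (SE), or 1.36-fold, with an adjusted p of 0.147 in limma. Tpx2, which binds and activates Aurora A on the spindle, differed by 0.18 ± 0.084 (adjusted p = 0.560), also without overlap.

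Cdk1, the kinase at the centre of mitotic entry, had levels of 8.50, 8.65 and 8.76 in Mist-targeted cells, against 8.45, 8.35 and 8.47 in Control cells. The difference of 0.21 ± 0.098 (adjusted p = 0.554) came with a narrow gap between the lowest Mist-targeted and the highest Control array. Cdc25c, a phosphatase that activates Cdk1, had 8.10, 8.21 and 8.09 in Mist-targeted cells, against 7.89, 7.87 and 7.86 in Control cells, and differed by 0.26 ± 0.080 (adjusted p = 0.313). Its Control arrays lay close together and below every Mist-targeted array. Cdc25b, a related phosphatase, differed by 0.091.

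The 2 cyclins among the measured members had differences of opposite sign. Ccnb2, cyclin B2, had 9.66, 9.78 and 9.75 in Mist-targeted cells, against 9.82, 9.97 and 9.86 in Control cells. It was the sole member with every Mist-targeted array below every Control array, with a difference of -0.16 ± 0.086 and an interval of -0.36 to 0.045 (adjusted p = 0.646). Ccna2, cyclin A2, had 9.85, 9.73 and 9.98 in Mist-targeted cells, against 9.68, 9.75 and 9.72 in Control cells; the groups overlapped and the difference was 0.14 ± 0.093. Foxm1, the transcription factor that drives many G2 and mitosis genes, had 7.55, 7.50 and 7.70 in Mist-targeted cells, against 7.28, 7.54 and 7.43 in Control cells. Control array 2 lay within the Mist-targeted range, and the difference was 0.17 ± 0.103 (adjusted p = 0.692), with 0.098 without Control array 1 and 0.11 without Mist-targeted array 3. Cdca3, which triggers breakdown of the Cdk1 inhibitor Wee1, differed by 0.16 ± 0.103 without overlap.

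The 4 members of the chromosomal passenger complex, which corrects faulty attachments and later steers cytokinesis, all had the higher mean in Mist-targeted cells (median 0.18, 0 called). Birc5, the subunit survivin, had 7.94, 7.97 and 8.33 in Mist-targeted cells, against 7.76, 7.84 and 7.76 in Control cells. The difference was 0.30 ± 0.121 (adjusted p = 0.484), and without Mist-targeted array 3, the highest, it was 0.17. Aurkb, the Aurora B kinase of the complex, had 8.05, 8.30 and 8.22 in Mist-targeted cells, against 7.81, 8.0 and 8.21 in Control cells. Control array 3 lay among the Mist-targeted arrays, and the difference was 0.18 ± 0.125 (adjusted p = 0.725), with 0.084 without Control array 1 and 0.28 without Control array 3. The scaffold Incenp and the subunit borealin (Cdca8) differed by 0.14 and 0.17.

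**Figure D4:**
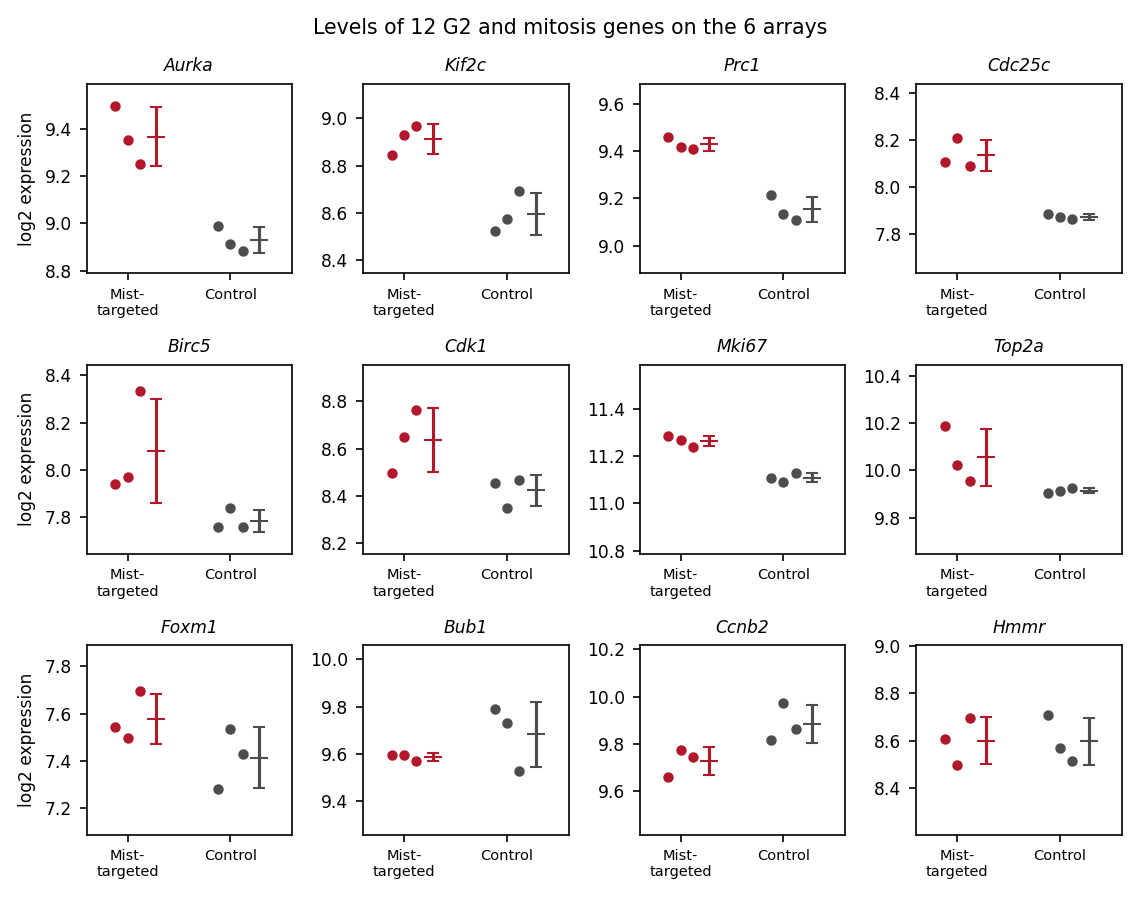
Log2 levels of named members on each array, with Mist-targeted arrays left of Control arrays. Points are single arrays, and the mark with bars beside them is the group mean ± SD (n = 3); every panel spans the same height. Aurka averages 9.37 in Mist-targeted and 8.93 in Control cells, and Ccnb2 lies the other way round.

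The mitotic kinesins, motors that move chromosomes and shape the spindle, had a median difference of 0.19, with 8 of 8 above 0, 5 without overlap and 0 called. All Mist-targeted arrays lay above all Control arrays for 9.99% of all genes and 18.8% of genes at least as bright as the dimmest member. Kif2c, a kinesin that depolymerises microtubules at centromeres, had 8.84, 8.93 and 8.97 in Mist-targeted cells, against 8.52, 8.57 and 8.70 in Control cells. It ranked next after Aurka by size, at 0.32 ± 0.088 or 1.25-fold (adjusted p = 0.247). Kif23, the motor of the centralspindlin complex, had 10.18, 10.06 and 10.05 in Mist-targeted cells, against 9.86, 9.87 and 9.79 in Control cells, a difference of 0.26 ± 0.084 (adjusted p = 0.347). Kif20a, which carries the passenger complex to the central spindle, had 9.36, 9.45 and 9.32 in Mist-targeted cells, against 9.14, 9.22 and 9.15 in Control cells, a difference of 0.21 ± 0.082 (adjusted p = 0.466). The other kinesins ran from 0.026 for Kif15 to 0.19 for Kif20b, with 0.12 for Kif11, the bipolar motor that pushes spindle poles apart.

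Among the cytokinesis genes, 4 of 4 members had the higher mean in Mist-targeted cells and separated the groups without overlap (median 0.21, 0 called). That order held for 9.99% of all genes and 18.8% of genes at least as bright as the dimmest member. Prc1, which bundles the microtubules of the central spindle, had 9.46, 9.42 and 9.41 in Mist-targeted cells, against 9.21, 9.14 and 9.11 in Control cells, a difference of 0.27 ± 0.079 (adjusted p = 0.267). Racgap1, the partner of Kif23 in centralspindlin, had 8.73, 8.97 and 9.06 in Mist-targeted cells, against 8.60, 8.66 and 8.69 in Control cells, and differed by 0.27 ± 0.105 (adjusted p = 0.457). Ect2, the exchange factor that activates RhoA at the cleavage site, and the scaffold anillin (Anln) differed by 0.15 and 0.14.

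The 4 anaphase genes had a median of 0.26, with 4 of 4 above 0 and 0 called. The groups were separated by 2 of them, against 9.99% of all genes and 18.8% of genes at least as bright as the dimmest member. Ube2c, the ubiquitin-conjugating enzyme of the APC/C, had 9.05, 8.89 and 9.08 in Mist-targeted cells, against 8.78, 8.81 and 8.73 in Control cells (0.23 ± 0.089, adjusted p = 0.444). Cdc20, the activator of the APC/C in mitosis, had 8.44, 8.57 and 8.55 in Mist-targeted cells, against 8.28, 8.36 and 8.29 in Control cells (0.21 ± 0.082, adjusted p = 0.457). Pttg1, the securin that holds separase inactive, had 7.18, 6.90 and 7.25 in Mist-targeted cells, against 6.77, 6.93 and 6.76 in Control cells; it differed by 0.29 ± 0.115 with overlap, since Mist-targeted array 2 lay below Control array 2. Espl1, the separase that cleaves cohesin, differed by 0.29 ± 0.125, also with overlap.

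The next roles are the kinetochore, which ties chromosomes to microtubules, and the checkpoint that watches over it. The 8 kinetochore and centromere members had a median of 0.10, with 7 above 0, and the 5 checkpoint members likewise 0.10, with 4 above 0, or 0.065 without Mist-targeted array 2; 0 were called in either group. Cenpf, a large kinetochore protein of G2 and mitosis, led the first group, with 8.53, 8.57 and 8.43 in Mist-targeted cells against 8.30, 8.26 and 8.30 in Control cells (0.22 ± 0.082, adjusted p = 0.415). Ndc80, which grips the microtubule at the outer kinetochore, differed by 0.20 ± 0.093. Spc24, a subunit of the same Ndc80 complex, had 7.83, 7.95 and 7.81 in Mist-targeted cells, against 7.69, 8.0 and 8.16 in Control cells, a difference of -0.087 ± 0.130 with overlap. It was 0.020 without Control array 3, -0.22 without Control array 1 and -0.13 without Mist-targeted array 2. Its partners Spc25 and Nuf2 differed by 0.052 and 0.098.

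In the checkpoint, Mad2l1, which inhibits Cdc20 while attachments are missing, had 8.80, 8.81 and 8.78 in Mist-targeted cells, against 8.65, 8.64 and 8.62 in Control cells. The arrays of each group lay close together without overlap, at a difference of 0.16 ± 0.075 (adjusted p = 0.566), which has the lowest standard error among the members. Bub1, a checkpoint kinase, had 9.60, 9.60 and 9.57 in Mist-targeted cells, against 9.79, 9.73 and 9.53 in Control cells, a difference of -0.097 ± 0.095 (adjusted p = 0.833) with overlap; it was -0.045 without Control array 1 and -0.17 without Control array 3. Bub3, Bub1b and Ttk differed by 0.13, 0.10 and 0.029.

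The chromosome proteins had a median of 0.052, with 4 of 5 above 0; the median was 0.11 without Control array 1, 0.034 without Mist-targeted array 1 and 0.12 without Mist-targeted array 3. Mki67, the proliferation antigen Ki-67 that coats mitotic chromosomes, had 11.29, 11.27 and 11.24 in Mist-targeted cells, against 11.11, 11.09 and 11.13 in Control cells, a difference of 0.16 ± 0.076 (adjusted p = 0.584) without overlap. Top2a, the topoisomerase that untangles sister DNAs, had 10.19, 10.02 and 9.95 in Mist-targeted cells, against 9.91, 9.91 and 9.93 in Control cells (0.14 ± 0.091, adjusted p = 0.705); without Mist-targeted array 1, the highest, the difference was 0.074. Probe sets that name Top2a together with another gene, not used here, differed by 0.077 ± 0.117 and 0.0093 ± 0.104. The condensin subunits Smc2, Smc4 and Ncapd2 lay near 0, at 0.052, 0.052 and -0.037. A probe set that names Ncapg with another gene, not used here, differed by -0.041 ± 0.110. The spindle-associated proteins Nusap1 and Hmmr differed by 0.022 and 0.0030, and a probe set that names Nusap1 with another gene by 0.070.

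**Figure D5:**
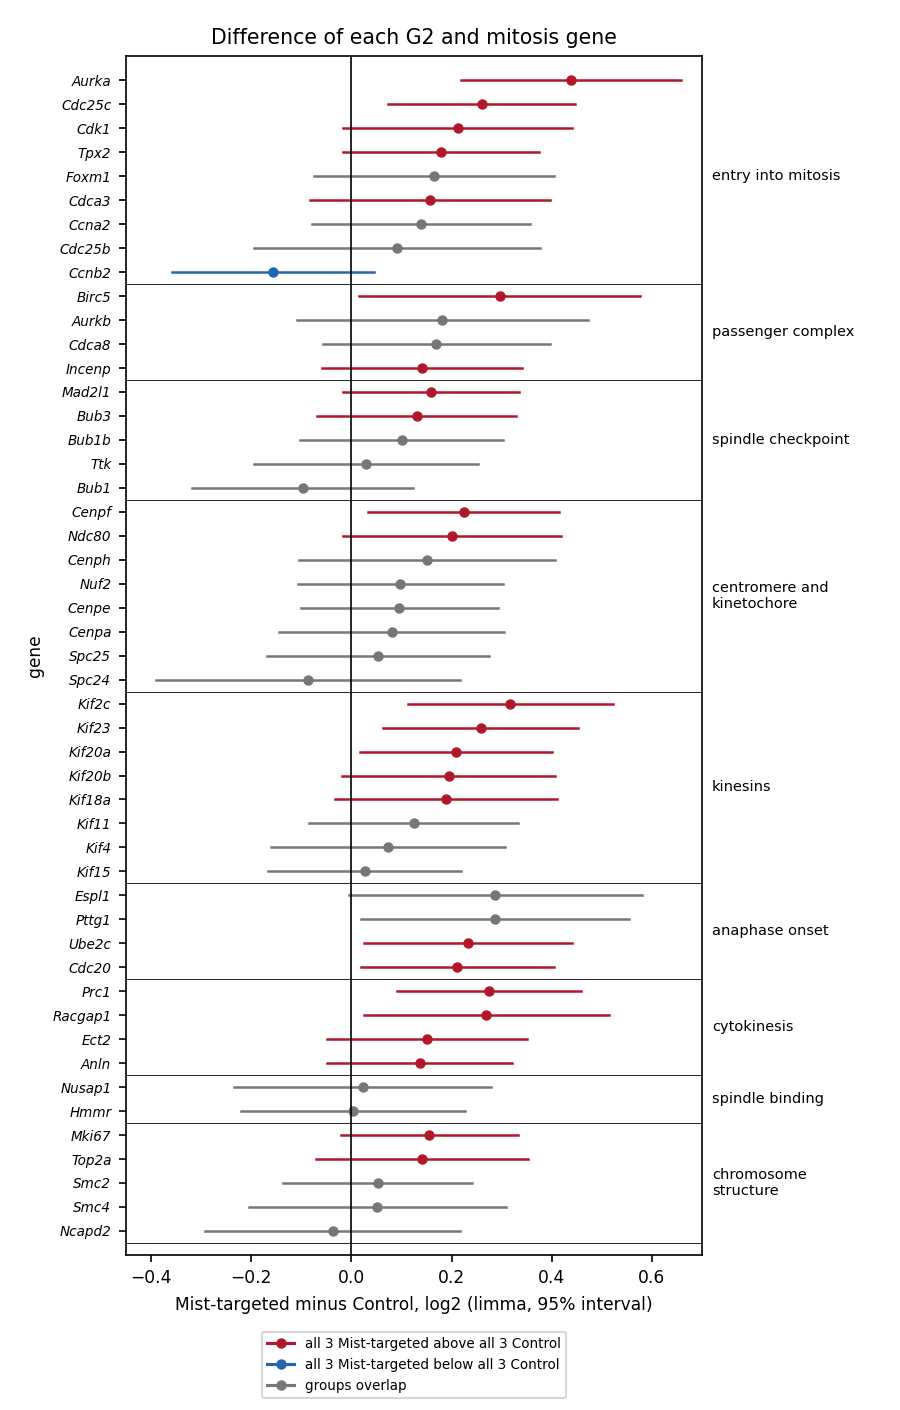
Log2 difference, Mist-targeted minus Control, of each measured member with its 95% interval, ordered by size within each role and coloured by whether the arrays of the 2 groups overlap. Of the 49 intervals, 12 lie wholly above 0, none lies wholly below 0, and 37 include 0.

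The size of the deviation by role varied among the 3 Mist-targeted arrays. The median kinesin lay 0.22, 0.23 and 0.05 above its Control mean on arrays 1 to 3, and the median kinetochore member 0.20, 0.12 and 0.04. Entry genes, in contrast, deviated by 0.13, 0.08 and 0.28, and anaphase genes by 0.21, 0.19 and 0.37. Cytokinesis genes were nearly level, at 0.18, 0.19 and 0.21. Mist-targeted array 3 was the lowest of its group for 24 of the 49 members and the highest for 14.

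Other genes of the pathway were read in the same way. Of 109 measured genes of mitotic regulation, the APC/C, kinetochore, spindle, condensin and cohesin, 86 had the higher mean in Mist-targeted cells (78.9%, median 0.12). limma called 0 in either direction, and 19 (17.4%) had an unadjusted p under 0.05, all above 0. In that direction 5.24% of all genes and 9.98% of the genes at least as bright as the dimmest member reached it. Plk1, the Polo kinase of mitotic entry, had 10.10, 10.12 and 10.10 in Mist-targeted cells, against 9.71, 9.77 and 9.82 in Control cells, a difference of 0.34 ± 0.079 (adjusted p = 0.173). Mybl2, the MYB subunit of MYB-MuvB, differed by 0.38 ± 0.111 (adjusted p = 0.286), Cdc25a by 0.37 ± 0.091 (adjusted p = 0.192) and the Cdk-binding protein Cks2 by 0.55 ± 0.147 (adjusted p = 0.230), each without overlap. The Cks2 difference was 0.38 without Mist-targeted array 3 and 0.66 without Mist-targeted array 2. Among kinetochore genes, Sgo1, the guardian of centromeric cohesion, differed by 0.35 ± 0.086 and Zwint by 0.37 ± 0.107 (adjusted p = 0.189 and 0.275).

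The spindle and cytokinesis list had 25 of 28 genes above 0, with a median of 0.15. In it, Cep55, an abscission protein, and Kif14 differed by 0.26 and 0.32. The APC/C list, with 12 of 17 above 0 and a median of 0.056 (0.019 without Control array 1), and the condensin and cohesin list, with 10 of 17 and a median of 0.012, lay nearer to the genes at large. Of these, the APC/C subunit Anapc1 differed by -0.19 ± 0.083 (adjusted p = 0.541), the APC/C inhibitor Fbxo5 by 0.21 ± 0.094, and the APC/C activator of late mitosis and G1, Fzr1, by 0.064 ± 0.090. The cohesin regulators Pds5b and Esco2 differed by 0.16 and 0.21.

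The S phase genes lay in the same range. Of 41 measured S phase and replication genes, 38 had the higher mean in Mist-targeted cells (92.7%), with a median of 0.14 and 19 without overlap, next to 45 of 49, 0.15 and 24 for the members; the difference between the 2 lists was not tested. All Mist-targeted arrays lay above all Control arrays for 9.99% of all genes and 18.8% of genes at least as bright as the dimmest member. limma called 0 of the 41, with 13 (31.7%) at an unadjusted p under 0.05, all above 0. In that direction 5.24% of all genes and 9.98% of the genes at least as bright as the dimmest member reached it. Cdc6, which loads the replicative helicase, differed by 0.50 ± 0.089 (adjusted p = 0.086) and Fen1, the flap endonuclease, by 0.42 ± 0.081 (adjusted p = 0.110). The list of cell cycle inhibitors, G1 cyclins and pocket proteins had 20 of 25 genes above 0 and a median of 0.081, with 0 called and 8 at an unadjusted p under 0.05, 6 above and 2 below 0; of all genes, 5.24% reached it above and 5.79% below 0. Of these, Cdkn1b, the inhibitor p27, had 6.52, 6.82 and 6.69 in Mist-targeted cells, against 7.36, 7.33 and 7.17 in Control cells, a difference of -0.61 ± 0.107 (adjusted p = 0.084). Ccne1, cyclin E1, differed by 0.53 ± 0.118 (adjusted p = 0.156), and Cdkn1a, the inhibitor p21, by 0.0048 ± 0.082.

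The number of calls depended on which probe sets were tested together. Over the 23521 probe sets that name a single gene, limma called 713 (3.03%), and Aurka was the sole member among them (adjusted p = 0.026). In that setting Cdkn1b (adjusted p = 0.0066), Ccne1, E2f7, E2f8, Cdc25a, Cks2, Cdc6, Fen1, Chaf1a and Mcm6 of the other lists were called too.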

How the data were processed

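RNA from 6 RAW 264.7 samples was read on Affymetrix arrays, 1 array per sample. The deposited values are on a log2 scale, and the submitters' processing notes name RMA and Partek; RMA, in general, subtracts background, equalises the arrays' distributions and summarises the probes of a set. They ran from 2.50 to 14.1 and were used as deposited. Dim probe sets carry no detection call here. Of 41345 probe sets, 23521 named 1 gene, 1814 named several and 16010 were not listed or had no symbol in the annotation table; symbols were updated through gene IDs. Each gene was read from the probe set that names it alone and has the highest mean over the 6 arrays.

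Mist-targeted and Control arrays, 3 each, were compared with limma 3.58.1 (R 4.3.3), a linear model per probe set with moderated variances, over all probe sets, with Benjamini-Hochberg adjustment over all of them and a threshold of 0.05. The code was tested on simulated data. The labels do not say whether replicates are separate cultures; the p-values therefore reflect only how far these samples differ from each other, possibly for technical reasons. With 3 arrays a group, their number limits the precision.

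All members may be named; array values are given for the 12 members with the smallest p, the 3 most negative and a list of 10 classical genes. Of each other list, up to 3 called genes or else the 2 with the smallest p are named, with Plk1, Cdkn1a, Mybl2 and Fzr1 always. Mad2l1, Ccna2, Cks2, E2f7, E2f8, Chaf1a and Mcm6 were singled out after their values were seen. The members, lists and tests were chosen with earlier results of these data known.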

Additional observations from a re-analysis of the deposited data

How the results depend on the processing

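The shift of the members kept its direction under all 15 alternatives run: their median difference lay between 0.14 and 0.16 and 40 to 45 of 49 were above 0, with 40 without Mist-targeted replicate 1. Some alternatives could not change a member's difference: the replicate block, eBayes with trend and robust, no moderation and the choices of probe sets. Only quantile normalization, median centring, array weights and leaving out an array could change it. The number of members called was 0 except with single-gene probe sets only, where it was 1 (Aurka). The count of probe sets called, 105 in the report, was 287 with eBayes trend and robust, 161 without the dimmest 40% of probe sets, 713 with single-gene probe sets only and 0 without moderation of the variances. With the replicate number as a block it was also 0, and 10 members then had an unadjusted p under 0.05, against 12 without the block. Whether the replicate numbers pair the arrays was not settled. Deviations of same-numbered arrays correlated at 0.20, 0.096 and 0.033, and those of other pairs across the groups at -0.15 to 0.060. Of the 6 arrays, 5 correlated best with the array of their own number, and Control 3 did not. Leaving out 1 array at a time gave 2 to 40 probe sets called, with 15, 40 and 4 without Mist-targeted arrays 1 to 3 and 10, 2 and 14 without Control arrays 1 to 3, and 0 members called each time. Without 1 array at a time, Spc24 ran from -0.216 to 0.020, and was above 0 only without Control replicate 3. The condensin and cohesin list's median lay between -0.0025 and 0.052, and the Nusap1 and Hmmr pair's lay between -0.037 and 0.086 over these fits. In the alternatives that could not change a difference, its direction was fixed. Where 0 probe sets were called, the side of the threshold says nothing about the members in particular. With these included, 298 of 300 differences of 20 named members over the 15 alternatives kept direction and side of the threshold. The causes of these changes were not tested.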
